A study of Drosophila melanogaster with 2 samples.

Results

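Translation initiation factors load the small ribosomal subunit with initiator tRNA and bring it to the start codon of an mRNA. The genes described here are the 44 protein-coding genes of the Ensembl BDGP6 annotation of Drosophila melanogaster whose symbols begin with eIF, among 13945 protein-coding genes on the main chromosome arms. The rule uses the symbol alone, but it was set with earlier results of these data known. The values are chromatin immunoprecipitation peaks (ChIP-seq) of CG17801, a zinc finger protein with a C-terminal GFP tag, in ovaries of adult female flies of a transgenic CG17801-GFP line whose age is listed as unknown. The fusion was inserted into the fly genome by site-specific recombination, and an anti-GFP antibody was used for the precipitation. There is 1 group, with biological replicates 1 and 3, and no second genotype or treatment. Whole ovaries mix germline and somatic cells, so the cell type in which a peak arose is not resolved. Binding that another GFP fusion would show in the same tissue was not analysed here.

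Initiation in eukaryotes is divided among a few complexes. eIF2 carries the initiator tRNA as a GTP complex and eIF2B recharges it; eIF1, eIF1A and eIF5 act at start codon choice; the large eIF3 complex holds the small subunit; and eIF4E, eIF4G and eIF4A form the complex that binds the mRNA cap and unwinds the leader. eIF5B joins the ribosomal subunits and eIF6 keeps the large subunit from joining too early. In the fly ovary and early embryo many maternal mRNAs are held silent by proteins that act on the cap-binding step, among them eIF4EHP, a relative of eIF4E that binds the cap without recruiting eIF4G.

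CG17801-GFP peaks lay at the promoters of most initiation factor genes. The strictest of the 4 deposited lists, the 6723 peaks that passed the authors' filter on the irreproducible discovery rate (IDR), put a peak summit no more than 250 bp from a transcription start site (TSS) of 27 of the 44 genes (61.4%), beside 4245 of all 13945 genes (30.4%). In the pooled list, made from the reads of both replicates and 30000 peaks long, the count was 36 of 44, beside 55.4% of all genes. Replicate 1 alone had a promoter summit at 35 members (54.0% of all genes) and replicate 3 alone at 37 (54.4% of all genes), with 35 found in both (49.4% of all genes). Without reaching the IDR list, a further 8 members had summits in the pooled and both replicate lists (18.2%, beside 19.1% of all genes), and 7 had none in any list (15.9%, beside 40.3% of all genes). The remaining pair, eIF4B and eIF4E5, had a summit in replicate 3 but none in replicate 1. These counts describe the list of genes, and no test of the list was made. Read totals cannot be had from peak lists, so the depth behind each peak is unknown. Signals are the authors' values on an unstated scale and serve here only to order peaks inside 1 list. The pooled and IDR lists rest on the reads of both replicates and are not independent of them. Each bound member has the same signal and rank in the pooled and IDR lists, so these are not separate measures.

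**Figure D1:**
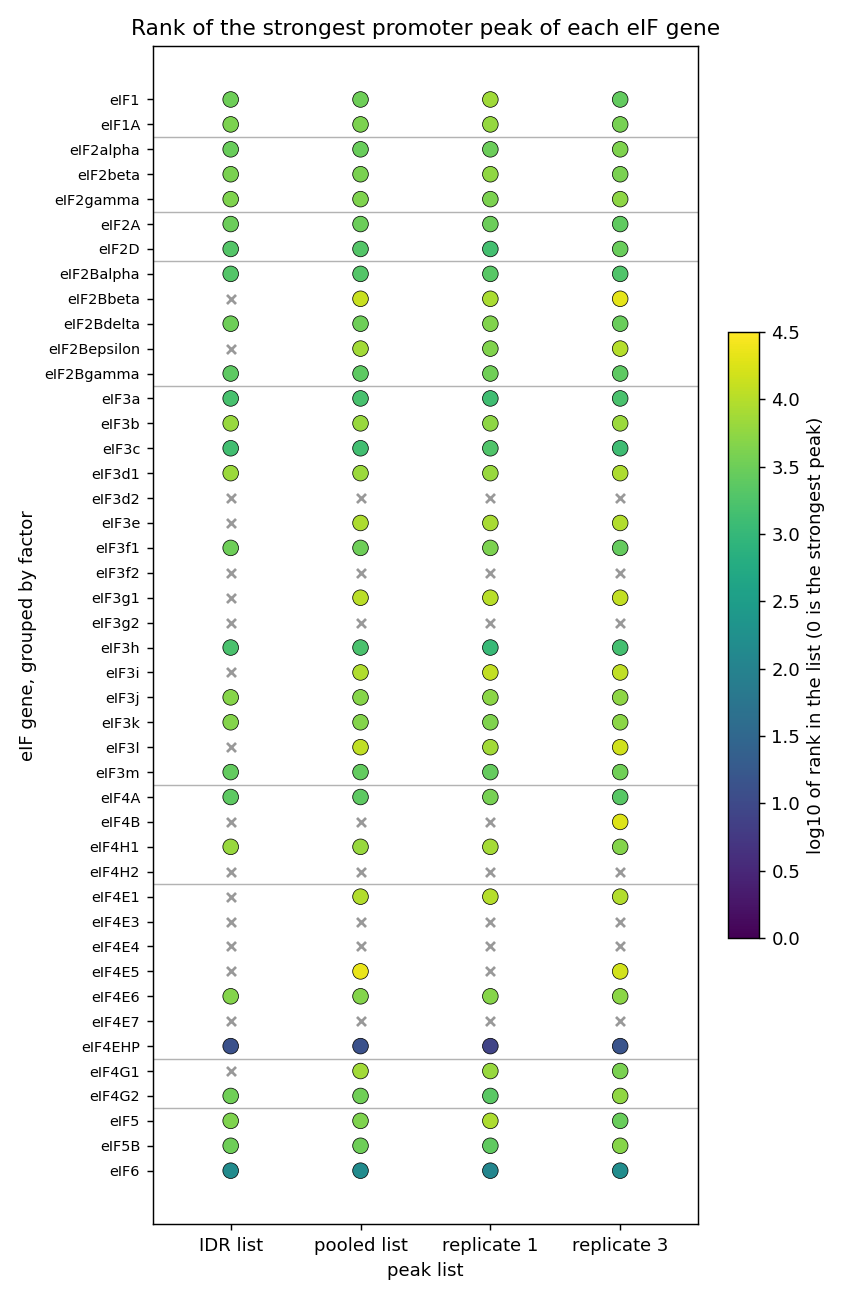
Rank of the strongest summit within 250 bp of a TSS for each of the 44 eIF genes (rows, grouped by factor) in the 4 peak lists (columns). Colour is log10 of the rank, with dark points strongest, and a grey cross marks no summit. eIF4EHP and eIF6 are the darkest rows, and 7 genes have crosses in every column.

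The highest signal of any member by far was at eIF4EHP (3R, 24063077 to 24108960, minus strand). Its summit, at 24109188, lay 228 bp upstream of the annotated start. The signal was 2154 in the IDR list (rank 13 of 6723), and the peak ranked 8 in replicate 1 and 15 in replicate 3. Both replicates thus placed it among their very strongest peaks, with summits 5 bp and 0 bp from the IDR summit. The same summit was nearer to the divergent neighbour CG18428, 148 bp from its TSS, so the peak cannot be given to 1 gene of the pair. Below are the bases around this summit and around the summits of eIF3f1, eIF2gamma, eIF2alpha and eIF4E6. eIF4EHP, the strongest site, lay in sequence with 81.2% A+T and without the DNA replication-related element (DRE, TATCGATA, the site of the factor DREF). The 4 others hold a DRE centred 4.5 to 33.5 bp from the summit. Of the 27 bound members 6 had a DRE within 100 bp of the summit, so lacking one is not particular to eIF4EHP. The sequences shown are thus chosen examples. Each is from Release 6 (dm6), 5' to 3' on the strand of the gene, from chr3R:24109138-24109238, chr3R:4714141-4714241, chr3R:15263422-15263522, chrX:16446978-16447078 and chr3R:29027212-29027285, all on the minus strand. Capitals mark the DRE and, in eIF2alpha, the core GGTCACAC of motif 1, the element bound by M1BP, which appears there as its reverse complement. The summit is base 51 in the first 4 and base 24 in eIF4E6.
eIF4EHP: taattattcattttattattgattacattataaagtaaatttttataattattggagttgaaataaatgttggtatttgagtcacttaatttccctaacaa
eIF3f1: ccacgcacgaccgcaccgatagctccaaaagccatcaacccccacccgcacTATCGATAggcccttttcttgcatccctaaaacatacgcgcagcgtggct
eIF2gamma: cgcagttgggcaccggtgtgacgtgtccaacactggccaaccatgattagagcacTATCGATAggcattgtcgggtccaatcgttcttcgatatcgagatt
eIF2alpha: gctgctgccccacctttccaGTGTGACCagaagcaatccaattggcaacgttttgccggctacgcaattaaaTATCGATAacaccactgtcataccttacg
eIF4E6: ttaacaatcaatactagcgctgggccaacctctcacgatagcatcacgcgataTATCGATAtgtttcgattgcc

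Genes of the cap-binding group ranged from the strongest member peak to no peak at all. Of the 7 genes of the eIF4E group, 2 had an IDR promoter summit, eIF4EHP and eIF4E6, a share near the 30.4% of all genes. eIF4E6 (3R, 29026439 to 29027174), the shortest member of the family at 173 residues, had a signal of 151 and ranked 4590 in the IDR list, 4894 in replicate 1 and 5304 in replicate 3. Its summit lay 88 bp upstream of its start and 26 bp inside the divergent gene CG1951, which starts 62 bp from eIF4E6. Given to the nearest TSS only, neither summit of the group would count for an eIF4E gene.

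eIF4E1 (3L, 9399618 to 9402460), the main cap-binding protein of the fly, had peaks below the IDR list. With 4 annotated TSSs it had more chances than most genes to meet a summit, yet its strongest promoter peak had a pooled signal of 86.2 (rank 9761), and ranked 10175 in replicate 1 and 9459 in replicate 3. Its nearest IDR summit, of signal 232, was 2675 bp from the closest of its TSSs. eIF4E5 (3L, 7894880 to 7896009) had a weak pooled peak of signal 36.6 (rank 22298) and a replicate 3 peak (rank 15379), while the nearest replicate 1 summit was 4536 bp away. It is the only member of the 44 with a pooled promoter peak that 1 replicate did not share.

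The other genes of the group, eIF4E3, eIF4E4 and eIF4E7, had no promoter summit in any list. eIF4E3, which is needed for sperm formation in flies, had its nearest pooled summit 28360 bp from its TSS. For eIF4E4 that distance was 12257 bp and for eIF4E7 7267 bp, although a replicate 3 summit lay 348 bp from the start of eIF4E7, outside the promoter window. Protein likeness did not order these genes by their peaks. In alignments of the annotated coding sequences, eIF4E1 shared 63.1% of aligned residues with eIF4E4, which had no peak, 51.5% with eIF4E6, and 27.4% with eIF4EHP, which had the strongest peak. The corresponding values were 56.8% for eIF4E5, 53.5% for eIF4E7 and 48.3% for eIF4E3.

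The 2 genes of the scaffold eIF4G fell on either side of the IDR limit. eIF4G2 (3R, 23808285 to 23819237), which encodes the eIF4G form required in the male germline, had an IDR signal of 182 (rank 3305), with ranks of 2204 in replicate 1 and 5707 in replicate 3. Its summit was 31 bp downstream of a TSS that the annotation also gives to CG33111, so the gene pair shares the peak. eIF4G1 (chromosome 4, 915297 to 930715), the general form, had a pooled signal of 106 (rank 7667), and ranked 6458 in replicate 1 and 3870 in replicate 3. It thus stood among the 6723 strongest peaks of each replicate alone and outside the IDR list, and the closest IDR summit was 27598 bp away. Their proteins shared 28.7% of aligned residues.

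eIF3, the largest initiation complex, had the most genes and a graded set of signals. Of its 16 genes, 9 had an IDR promoter summit, beside 30.4% of all genes. A further 4 had a summit in the pooled and both replicate lists only (19.1% of all genes), and 3 had none (40.3% of all genes). The strongest was eIF3c (2R, 17665678 to 17669275), a core subunit, with a signal of 298 (rank 1368) and ranks of 1809 in replicate 1 and 1278 in replicate 3. eIF3a (3R, 4429798 to 4433895), the largest core subunit, followed at 276 (rank 1567), with ranks of 1324 and 1611, and had 2 IDR summits at its start. eIF3h (2L, 5051193 to 5053094), a subunit of the MPN domain family, had 273 (rank 1600), with ranks of 1092 and 1429. Their peaks stood at percentiles 77.6, 74.6 and 74.0 of signal among all genes with an IDR promoter summit.

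The middle of the group held eIF3m at a signal of 208 (rank 2603) and eIF3f1 at 186 (rank 3167). eIF3m carries a PCI domain and eIF3f1 an MPN domain, the folds that build the outer ring of the complex. Lower in the list were eIF3k at 149 (rank 4694), eIF3j, a loosely bound subunit, at 145 (rank 4879) and the core subunit eIF3b at 122 (rank 6303). eIF3d1, a cap-contacting subunit in human cells, had the lowest signal of any bound member, 117 (rank 6702), just above the lowest value in the IDR list. It ranked 6366 in replicate 1 and 8699 in replicate 3, so replicate 3 alone would not have placed it among its 6723 strongest peaks.

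The subunit genes eIF3e, eIF3i, eIF3g1 and eIF3l had summits in both replicates and the pooled list, all below the IDR list. Their pooled signals were 94.6 for eIF3e (rank 8770), 92.3 for eIF3i (rank 9060), 78.4 for eIF3g1 (rank 10887) and 73.5 for eIF3l (rank 11624). In replicate 1 they ranked 8240, 12334, 10451 and 7486, and in replicate 3 they ranked 9521, 11873, 12329 and 14883. Core and ring subunits thus occur on either side of the IDR limit.

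Within the eIF3 group, 3 subunits have a second gene copy. In each pair the first copy had promoter peaks and the second had none in any list. Over all genes, 55.4% had a promoter summit in the pooled list and 40.3% had none in any list. eIF3g1 (X, 2609247 to 2610336) had its pooled peak 56 bp downstream of its TSS, while the nearest pooled summit to eIF3g2 (3R, 20408265 to 20409243) was 14559 bp away. eIF3d1 (3R, 23680039 to 23682317) had its IDR summit 68 bp downstream of the TSS, while the nearest pooled summit to eIF3d2 (3R, 12192703 to 12195011) was 24637 bp away. For the pair eIF3f1 and eIF3f2, the summit of eIF3f1 lay 9 bp upstream of its TSS and the nearest pooled summit to eIF3f2 was 4627 bp away. The proteins of these pairs shared 72.3% of aligned residues for eIF3g1 and eIF3g2, 67.5% for eIF3d1 and eIF3d2 and 40.6% for eIF3f1 and eIF3f2. The RNA helicase cofactor eIF4H gave a further pair of this kind. eIF4H1 (X) had an IDR signal of 119 (rank 6497), eIF4H2 (3R) had no promoter summit in any list with the nearest pooled summit 18117 bp away, and their proteins shared 45.7%. The eIF4G pair described above differed, with promoter peaks at both genes and the IDR summit at the second, eIF4G2. The 4 pairs counted here are those of eIF3 and eIF4H, and their number is too small for a test of its own.

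The start regions of eIF3g1 and eIF3g2, the pair of highest protein identity, are given below so that the copies with and without a peak can be set side by side. Each runs from 50 bases before the TSS to 49 after it, with the TSS at base 51, on the strand of the gene, from chrX:2610287-2610386 (minus) and chr3R:20408215-20408314 (plus). Neither holds TATCGATA or GGTCACAC, so no base is in capitals. A+T made up 57.0% of the window at eIF3g1 and 65.0% at eIF3g2.
eIF3g1: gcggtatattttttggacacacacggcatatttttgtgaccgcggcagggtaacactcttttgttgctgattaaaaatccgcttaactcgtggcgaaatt
eIF3g2: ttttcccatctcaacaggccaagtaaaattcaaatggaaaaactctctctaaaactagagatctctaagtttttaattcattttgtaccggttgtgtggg

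All 3 genes of the eIF2 complex had IDR promoter summits, beside 30.4% of all genes. eIF2alpha (X, 16445176 to 16446993), the subunit whose phosphorylation slows initiation under stress, had a signal of 192 (rank 2974), with ranks of 3072 in replicate 1 and 4258 in replicate 3. eIF2beta (3L, 12525093 to 12526731) had 164 (rank 4000) with its summit 119 bp upstream. eIF2gamma (3R, 15257844 to 15263458), the GTPase subunit, had 160 (rank 4199) with its summit 14 bp upstream of a TSS shared with Su(var)3-9, a histone methyltransferase gene, and 80 bp from the start of the divergent gene Set. eIF2A and eIF2D, factors that can deliver initiator tRNA without eIF2, had signals of 189 (rank 3071) and 243 (rank 1994).

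The exchange factor eIF2B was split, with 3 of its 5 genes bound in the IDR list, beside 30.4% of all genes. eIF2Balpha had a signal of 247 (rank 1947), eIF2Bgamma 216 (rank 2451) and eIF2Bdelta 184 (rank 3232), and their ranks in the replicates ran from 1787 to 4507. eIF2Bepsilon, the catalytic subunit, and eIF2Bbeta, both on X, were below the IDR list. eIF2Bepsilon had a pooled signal of 109 (rank 7411), ranked 4449 in replicate 1 and 9836 in replicate 3, and its summit was 145 bp from its own TSS but 38 bp from that of the divergent gene Ocrl. eIF2Bbeta had the lowest pooled signal of the 8 members below the IDR list, 65.5 (rank 13052), with ranks of 8645 and 20275. The nearest IDR summit to its start, 681 bp away with a signal of 3677, was the peak at the start of its neighbour Ugalt, a gene named here after its value was seen.

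Among factors of start codon choice and subunit joining, eIF1, eIF1A, eIF5, eIF5B and eIF6 all had IDR promoter summits. Of the 4 unwinding factors eIF4A and eIF4H1 did. An IDR promoter summit was found at 30.4% of all genes. eIF1 had a signal of 185 (rank 3175) and eIF1A 163 (rank 4056). eIF5, the GTPase activator of eIF2, had 157 (rank 4341), and its replicate ranks, 8850 and 2924, were the least alike of the bound members. eIF5B had 186 (rank 3151). The second strongest peak of all members was at eIF6 (2R, 23849246 to 23850301), with a signal of 929 (rank 141), ranks of 117 in replicate 1 and 156 in replicate 3, and its summit 107 bp upstream with no other protein-coding TSS within 250 bp. eIF4A (2L, 5981764 to 5985909), the helicase of the cap complex, had 219 (rank 2386) and a second summit of signal 144 at another of its 3 TSSs. eIF4B (3L, 27842669 to 27858271) had a single weak replicate 3 peak at its start (rank 18278), and its nearest IDR summit was 154329 bp away.

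Apart from eIF4EHP and eIF6, the bound members had peaks at percentiles 0.16 to 77.6 of signal among all genes with an IDR promoter summit. The other 25 had signals from 117 to 298. The median over the 27 was 186, beside 191 over all 4245 genes with an IDR promoter summit, and 11 of the 27 lay above that median. The share of members bound was above that of all genes, while the median signal of those bound was not. Ranks in the replicates ran from 8 to 8850 in replicate 1 (median 3762) and from 15 to 8699 in replicate 3 (median 2982), with 15 members ranked better in replicate 1 and 12 in replicate 3. Over the 35 members with a summit in both replicates, Spearman's rho of the ranks was 0.71, and 0.66 over the 33 without eIF4EHP and eIF6. That value describes genes from the same 2 libraries and is not a test.

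**Figure D2:**
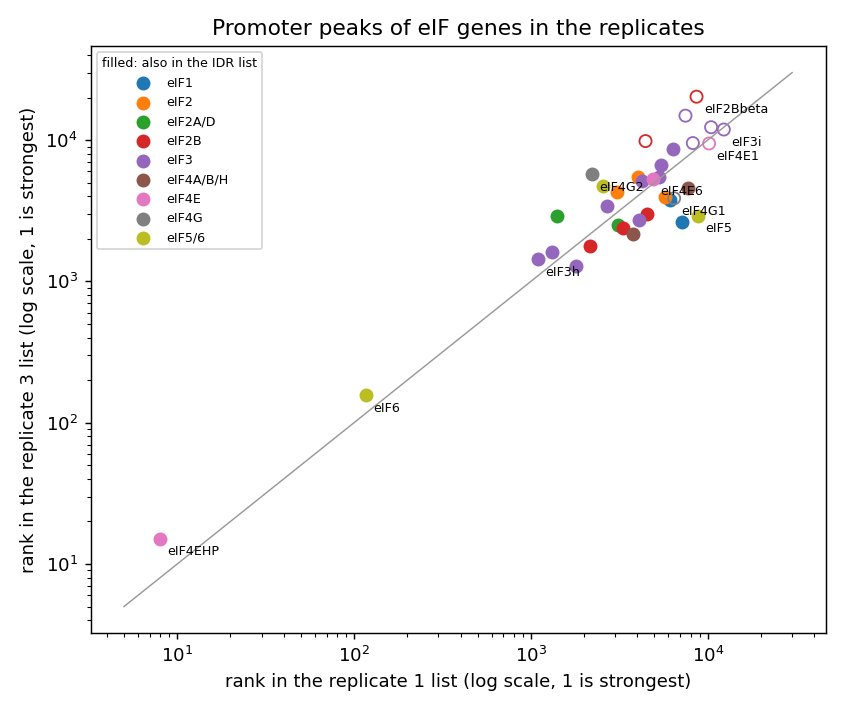
Rank of the strongest promoter peak in replicate 1 (x axis) and replicate 3 (y axis), both on log scales, for the 35 eIF genes with a summit in both lists, coloured by factor. Filled points are also in the IDR list, open points are not, and the grey line marks equal rank. eIF4EHP and eIF6 stand apart at the lower left, with ranks of 8 and 15 and of 117 and 156.

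Summits sat close to the starts of these genes. Of the 27 IDR summits, 23 (85.2%) lay within 100 bp of a TSS of the member, beside 58.3% over all bound genes, and the exceptions were eIF4EHP, eIF6, eIF1 and eIF2beta, all upstream. The median position was -14 bp (negative is upstream), beside -60 bp over all bound genes, with 17 of the 27 upstream (63.0%, beside 69.5%). In replicate 1 the matching summit was at a median of 16 bp from the IDR summit and at most 86 bp away. In replicate 3 the median was 11 bp, and the largest distance was 120 bp, at eIF3a. The IDR list was derived in part from the replicate lists, so this nearness is not independent of them.

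**Figure D3:**
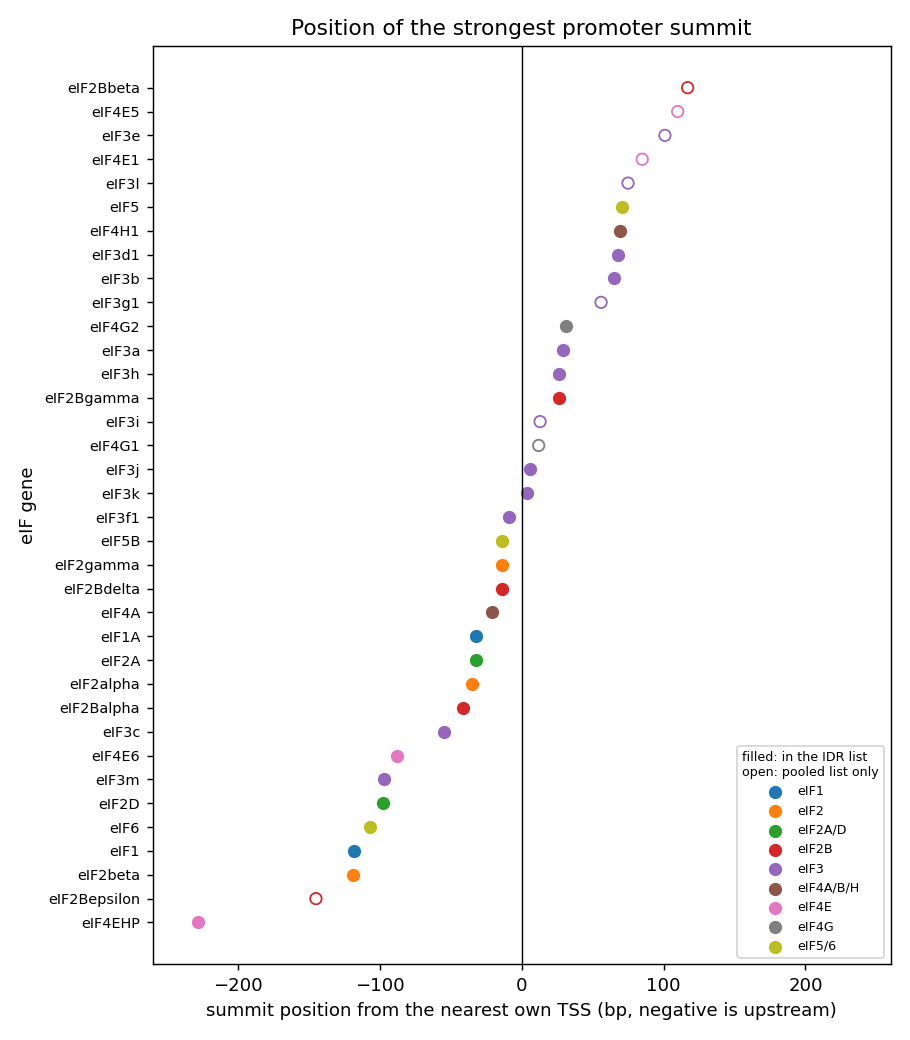
Position of the strongest pooled summit from the nearest TSS of the gene (x axis, bp, negative is upstream) for the 36 eIF genes that have one (rows). Filled points are in the IDR list and open points in the pooled list only, coloured by factor. eIF4EHP lies farthest upstream at -228 bp, and the bound members reach 71 bp downstream, at eIF5.

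Genes with more annotated TSSs were bound more often, among the members as among all genes. Of the 15 members with 2 or more TSSs, 14 were bound (93.3%), with eIF4E1 the exception, beside 46.0% of 3699 such genes. Of the 29 with 1 TSS, 13 were bound (44.8%), beside 24.8% of 10246. All 7 members without a peak in any list have 1 annotated TSS, as do 73.5% of all genes, bound or not. Members had 2 or more TSSs slightly more often than all genes, 34.1% beside 26.5%. In both classes the share of bound members was thus above that of all genes.

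Divergent neighbours showed the same kind of pattern. A gene on the other strand started within 500 bp upstream of 18 members (40.9%, beside 27.4% of all genes), and 14 of those 18 were bound (77.8%, beside 55.4% of 3815 such genes). Among the 26 members without such a neighbour 13 were bound, beside 21.1% of 10130 genes. At 10 of the 27 bound members the IDR summit also lay within 250 bp of the TSS of another gene (37.0%, beside 42.4% of all bound genes). The partners include vesicle-trafficking genes, Vps39 at eIF1A and Vps13B at eIF2Balpha. The other partners on the opposite strand were roh at eIF2Bdelta, CG1074 at eIF3a and senju at eIF3h, beside those of eIF2gamma, eIF4E6 and eIF4EHP. At eIF5, CG46312 shares the TSS on the same strand. The neighbour was nearer to the summit at 2 of the 27, eIF4E6 and eIF4EHP (7.41%, beside 20.2% of all bound genes).

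**Figure D4:**
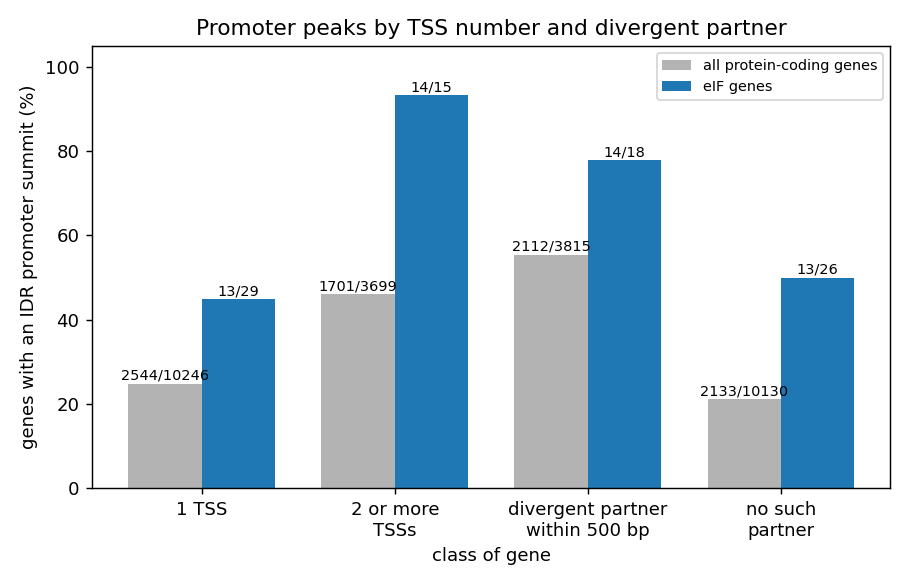
Share of genes bound in the IDR list (y axis, %), by the number of annotated TSSs and by the presence of a divergent gene start within 500 bp upstream (x axis). Grey bars are all protein-coding genes, blue bars the eIF genes, and the numbers above each bar are bound genes over genes in the class. The blue bar is the higher in each class, with 14 of 15 members bound among those with 2 or more TSSs.

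Of the 44 genes, 2 held IDR summits inside the gene and over 250 bp from each of its own TSSs (4.55%, beside 10.1% of all genes), with 6 summits in eIF4EHP and 1 in eIF5B. These are the longest members, at 45884 and 32320 bp. The 6 in eIF4EHP had signals of 122 to 263. All but 1 of them lay 2486 to 9772 bp from the eIF4EHP TSS. The other, at 24079320, lay 29640 bp from it. For all but the summit at 24079320 the nearest TSS was that of Syx1A. This gene lies inside the eIF4EHP region and is named here after its position was seen. The distances to its TSS were 102 bp at 24105661, 711 bp at 24106474 and 896 bp at 24104867. They were 4124 bp at 24101639 and 6575 bp at 24099188. The summit in eIF5B had a signal of 295 at 3437074, above the 186 of its promoter peak, and was 23529 bp from the nearest TSS of the gene.

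Promoter sequence was examined in the 300 bases from 250 before the gene start, for 7 short motifs, on both strands unless stated. The DRE, TATCGATA, was in 12 of 44 member promoters (27.3%), beside 9.36% of all 13945 promoters. It was in 9 of the 27 bound members (33.3%, beside 17.8% of all bound genes) and in 3 of the 17 others, eIF2Bbeta, eIF3l and eIF4B (17.6%, beside 5.67% of all unbound genes). The window starts from the outermost TSS of each gene, so a motif near the summit of another TSS, as at eIF2A, can lie outside it. Within 100 bp of the summit, 6 of 27 members had a DRE (22.2%), eIF2alpha, eIF2gamma, eIF2A, eIF3a, eIF3f1 and eIF4E6, beside 10.4% of 3699 IDR summits at promoters and 0.86% of the 3024 elsewhere. The DRE centre was 4.5 bp from the summit at eIF3f1 and 8.5 bp at eIF2gamma, as the sequences above show.

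The core of motif 1, GGTCACAC, was in 6 of 44 promoters (13.6%, beside 7.70% of all). It was in 3 of the 27 bound members (11.1%, beside 14.0% of all bound genes) and in 3 of the 17 others (17.6%, beside 4.94% of all unbound genes). In this window the order seen over all genes was thus not seen among the members, but the counts are small. Within 100 bp of the summit motif 1 was at eIF2alpha, eIF2A, eIF3k and eIF5B (14.8%, beside 7.22% of promoter summits). Of these bound members, eIF2A and eIF5B had no match in the promoter window. The E-box CAGCTG was in 4 promoters, eIF2Balpha, eIF2Bdelta, eIF2Bgamma and eIF3h (9.09%, beside 17.7% of all). All 4 are bound members (14.8% of them, beside 24.1% of all bound genes). None of the 17 others had it, beside 14.9% of all unbound genes. CGATA, which every DRE contains, was in 61.4% (beside 47.4%), TATAAA in 45.5% (beside 45.8%), GAGAG in 15.9% (beside 29.7%) and TCTTTC on the sense strand in 9.09% (beside 8.65%). The median share of A+T in these windows was 63.7% over the members and 62.0% over all promoters. Within 100 bp of the summit it was 57.2% at the 27 bound members and 60.2% at all IDR summits at promoters. A letter match marks sequence only, and neighbouring divergent genes share part of these windows.

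Genes of other steps of translation were also examined. Of 27 listed genes outside the eIF symbols, 17 had an IDR promoter summit (63.0%, beside the 30.4% of all genes). In the pooled list 26 of the 27 had one, beside 55.4% of all genes. In elongation and release, 7 of 9 were bound, led by eEF1gamma at a signal of 600 (rank 362) and eEF2, the translocase, at 409 (rank 779). Of the partners and relatives of the cap complex, 5 of 8 were bound. The eIF4G relative NAT1 had 274, the eIF4E-binding repressor Thor 269, tyf 195, the eIF4E transporter gene 4E-T 175 and the poly(A)-binding protein gene pAbp 122. In that class cup, an eIF4E-binding repressor of maternal mRNAs, was below the IDR list with a pooled signal of 69.6, in replicate 3 but not replicate 1.

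Some regulators of initiation were bound and others were not. In the list of kinases and TOR pathway genes 3 of 7 had an IDR summit (42.9%, beside 30.4% of all genes). These were S6k at 229, the gene of the TOR kinase (mTor) at 186 and PEK, an eIF2alpha kinase, at 137. Gcn2, another eIF2alpha kinase, had a pooled signal of 77.2, raptor 103 and Akt 57.5, all below the IDR list, and Lnk had no promoter summit in any list. In reinitiation and ribosome recycling, pix had 182 and MCTS1 141, while its partner DENR had a pooled signal of 53.3 and no IDR summit.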

How the data were processed

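Ovary chromatin of CG17801-GFP females was profiled in 2 samples, replicates 1 and 3, with fragments of 200 to 800 bp per the labels. The deposited files are narrowPeak lists on dm6. Per the file headers, meaning the text descriptions deposited with the samples, each replicate's list rests on its alignment with a control, the pooled list on the alignments of both, and the IDR list on these lists together. Which aligner and caller were run is not given in the sources used here. For each peak the authors deposited a signal, a −log10 q-value (not used here) and a summit offset.

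Genes and 19607 TSSs came from Ensembl release 115. A gene counted as bound when a summit lay within 250 bp of any TSS. The strongest such peak gave its values. The design named RefSeq proteins for paralog identity; in their place the longest annotated coding sequence of each gene was translated from the genome and aligned with BLOSUM62, gap penalties 11 and 1 and free end gaps. Depth per sample is unknown, so no counting error can be given. No test was run: there is 1 group, and genes are not replicates. The promoter search was tested on simulated data. Every eIF gene may be named, and other genes where they share a promoter peak with a member or belong to the list of translation genes (Tor was matched as mTor). Members and lists were chosen with earlier results of these data known. Alternatives varied window, list, TSS assignment, replicate, strength, peak extent and matching distance. Tools were Python 3.11.15, numpy 2.4.6, pandas 2.3.3, Biopython 1.88, scipy 1.17.1 and matplotlib 3.10.9.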

Additional observations from a re-analysis of the deposited data

How the results depend on the processing

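The count of 27 bound members was 23 with a 100 bp window (18.7% of all genes), 27 with a 500 bp window (34.0%) or whole peak intervals (33.0%), 25 with nearest TSS only (24.6%), 24 with 1 TSS a gene (27.5%) and 36 in the pooled list (55.4%), beside 30.4% of all genes for the main count. With peaks above the median signal of the IDR list only it was 17 (17.1% of all genes). The strongest peaks of replicate 3 alone gave 27 (29.8% of all genes), with eIF4G1 gained and eIF3d1 lost, and those of replicate 1 alone 26 (29.4%), with eIF4G1 and eIF2Bepsilon gained and eIF1, eIF4H1 and eIF5 lost. The eIF4E group went from 2 to 1 with a 100 bp window (eIF4E6) and above that median (eIF4EHP), to 0 with nearest TSS only and to 4 in the pooled list. The eIF4G group went from 1 to 2 in the pooled list and in each replicate alone. The eIF3 group went from 9 to 5 above that median, and each other alternative gave 8 to 13. Members found in both replicates were 28 with a 100 bp window (29.7% of all genes) and 35 with a 500 bp window (56.4%), beside 35 (49.4%) at 250 bp. IDR summits with a summit of each replicate within 100 bp numbered 26, against 20 within 50 bp and 27 within 200 bp. The causes of these changes were not tested. No paired analysis was possible because there is 1 group. Unknown depth limits what a missing peak shows.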

Other observations

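Ranks in single replicates and presence in the IDR list did not always go together. Every bound member had the same signal and rank in the IDR list as in the pooled list. Among the 8 members below the IDR list with pooled and both replicate summits, the best pooled rank was 7411. That is past the 6723 peaks of the IDR list. eIF4G1 ranked 6458 in replicate 1 and 3870 in replicate 3, inside the 6723 strongest of each, and 7667 in the pooled list, outside the IDR list. eIF3d1 had replicate ranks of 6366 and 8699, the second of them worse than either of eIF4G1. With a pooled rank of 6702 it was inside the IDR list. The replicate 1 summit at eIF4G1 lay 176 bp downstream of its TSS and the replicate 3 summit 49 bp upstream.

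The strongest member peak, at eIF4EHP, had the highest A+T of all 36 members with a pooled summit, 81.2% in the window from 50 bases before the summit to 50 after it. The lowest was 40.6%, at eIF4A. The weakest pooled peak with support in both replicates, at eIF2Bbeta, belongs to the gene next to Ugalt, whose promoter peak has the highest signal of any bound gene, 3677.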
